A study of Gallus gallus with 9 samples.

Results

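In chick embryos electroporated with PtcDLoop2, 46 of the 9621 genes tested had a higher normalized read count in each of the 5 PtcDLoop2 embryos than in any of the 4 control embryos. These 46 genes were selected on the measured values themselves. A gene had to reach 10 normalized counts in 4 or more of the 9 libraries, and its lowest PtcDLoop2 value had to lie above its highest control value. The separation of the groups is therefore what chose the genes, and no test of it is given for them. They make up 0.478% of the tested genes, and the table holds 12155 genes in all. The reverse pattern, lower in every PtcDLoop2 embryo, was found in 99 genes or 1.03%. With any other choice of 5 of the 9 libraries as the higher group, the same rule gave a median of 65.0 genes over 125 choices, from 26 to 404. In 105 of the 125 the number was 46 or more.

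The PtcDLoop2 embryos carried pCIG-PtcDLoop2, a plasmid that expresses the altered receptor and GFP, and the controls carried pMES, which gives GFP only. All embryos were electroporated at Hamburger-Hamilton (HH) stages 12 to 13 and taken 14 h later, near stage 16. Trunk tissue behind the heart was dissociated from each embryo, and GFP-positive cells were sorted and sequenced embryo by embryo, so a library is 1 embryo and the libraries are separate biological replicates. Per the labels' protocol 5 control embryos were sorted, and 4 control libraries are analysed here. The 2 groups differ in plasmid backbone as well as in the receptor, and these cannot be told apart here. Electroporation reaches some of the cells of a tissue, and each library is the mixture of those that were GFP-positive. In such bulk libraries a higher count can come from more cells of a type or from more RNA per cell, and these cannot be told apart.

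Hedgehog ligands are secreted proteins that bind the receptor Patched. Without ligand, Patched keeps the membrane protein Smoothened inactive, and the Gli transcription factors act mainly as repressors. Ligand binding lifts this inhibition and lets Gli activators form. PtcDLoop2 lacks an extracellular loop that the receptor needs to bind ligand, so it goes on inhibiting Smoothened in the cell that carries it. The coelomic epithelium is the mesodermal sheet that lines the body cavity, and the endoderm of the gut tube beside it is a known source of Sonic hedgehog. The files give chicken Ensembl identifiers without names, and 0 of them matched the reference gene table. The role of each gene, the Hedgehog pathway genes, the expression of PtcDLoop2 itself and the markers of coelomic epithelium and of other cell types are therefore not analysed here. The genes are given by identifier.

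The libraries held 10388989 to 13517164 reads assigned to genes, with 10074 to 11697 genes detected. Reads per library, detected genes and the share of the 10 most abundant genes gave two-sided exact permutation p-values of 0.619, 0.889 and 0.651 between the groups (Benjamini-Hochberg adjusted p = 0.889 for each of the 3 measures). The fewest detected genes were found in PtcDLoop2 replicate 1 and control replicate 4. Values are read counts scaled by library size factors and not by transcript length, so they compare libraries for 1 gene, not genes with each other. In the limma-trend fit across all 9621 genes, which used the same contrast as the selection, 0 genes or 0% had a Benjamini-Hochberg adjusted p under 0.05. The smallest limma adjusted p was 0.158, and 459 genes or 4.77% had an unadjusted p under 0.05, 193 higher and 266 lower. Limma-voom on recovered reads also gave 0 genes, with 397 at an unadjusted p under 0.05. Fold changes with standard errors (SE) are read from this fit as descriptions.

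**Figure D1:**
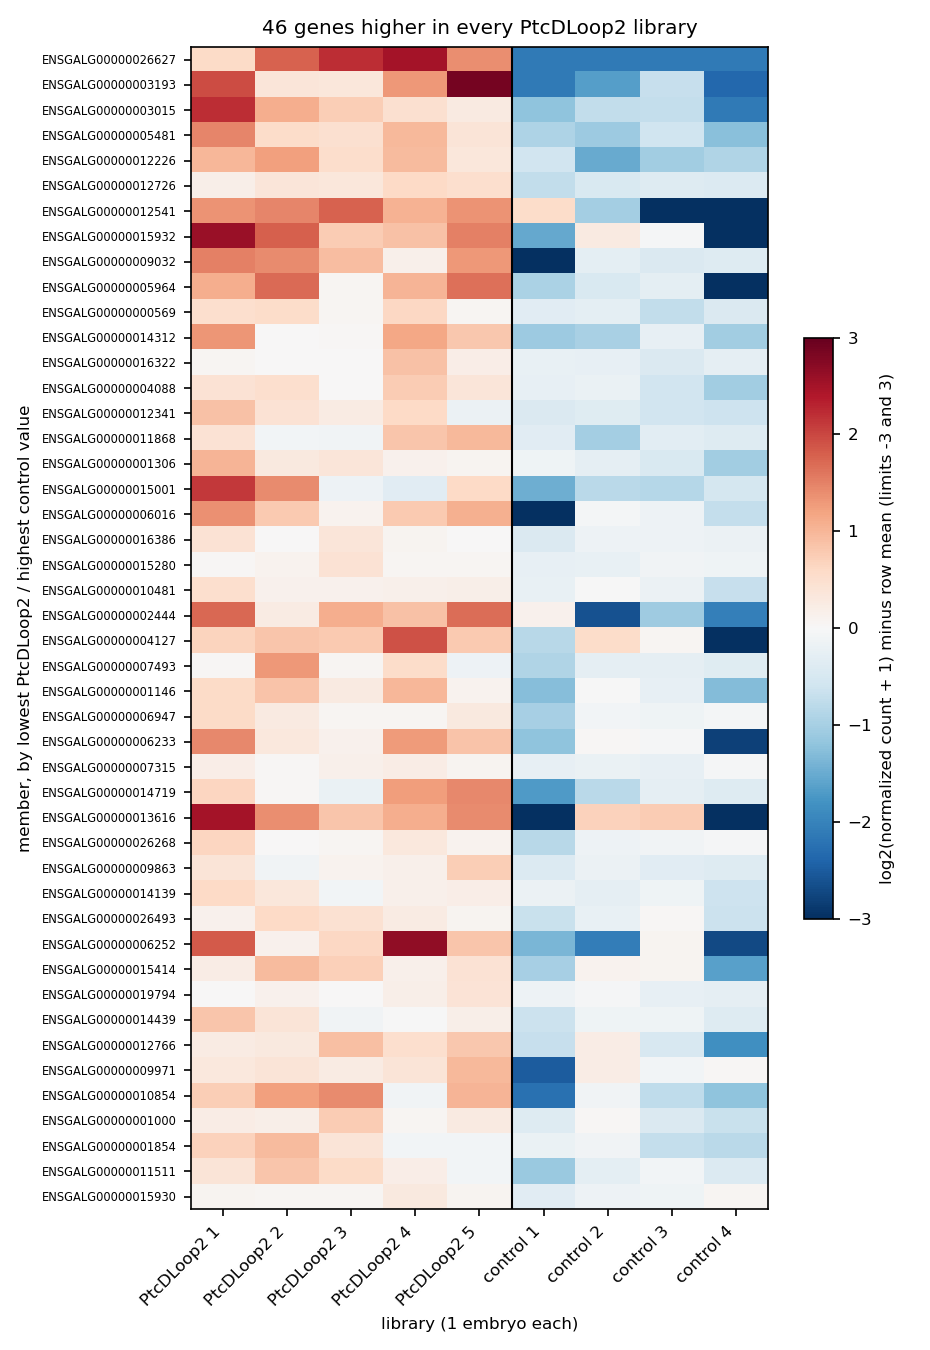
Each row is 1 of the 46 genes, ordered by the ratio of its lowest PtcDLoop2 to its highest control value, and each column is 1 embryo. Colour is log2(normalized count + 1) minus the mean of the row. The group boundary is sharp by selection, while the shade within each group differs from embryo to embryo, most in the rows where control replicate 1 or 4 is dark blue.

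The gap between the groups was narrow in most of the 46 genes. The ratio of the lowest PtcDLoop2 to the highest control value had a median of 1.08 over the 45 genes with control reads. It was under 1.2 in 35 genes. In 10 genes it was 1.2 or more, and 1 further gene had no control read, which makes 11 with a wider gap. In 4 of them the ratio was 1.9 or more. These 4 were ENSGALG00000003193, ENSGALG00000003015, ENSGALG00000005481 and ENSGALG00000012226. Of the 99 genes lower in every PtcDLoop2 embryo, 33 had a gap of 1.2 or more in the reverse direction.

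ENSGALG00000003193 had 1630.1, 539.3, 529.9, 1042.4 and 3066.1 normalized counts in PtcDLoop2 replicates 1 to 5 and 96.7, 134.2, 262.6 and 81.0 in control replicates 1 to 4. Its means were 1362 ± 1054 (SD, n = 5) and 144 ± 82.4 (SD, n = 4), a log2 fold change of 3.06 ± 0.53 (SE). The lowest PtcDLoop2 embryo was at 2.018 times the highest control. Among the 46 genes this one varied most across the PtcDLoop2 embryos, with a coefficient of variation of 77.4%.

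ENSGALG00000003015 stood at 1299.7, 593.4, 464.9, 387.8 and 339.9 with PtcDLoop2 and at 120.5, 168.4, 169.1 and 63.5 in the controls. PtcDLoop2 replicate 1 was more than 1.5 times any other embryo of its group, and the other 4 embryos were still all above the controls. The means of 617 ± 393 (SD, n = 5) and 130.4 ± 50.1 (SD, n = 4) gave a log2 fold change of 2.15 ± 0.43 (SE).

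ENSGALG00000005481 was more even. It had 371.9, 199.2, 189.6, 267.8 and 177.1 with PtcDLoop2, and 70.3, 62.9, 89.4 and 55.8 in the controls. Its means of 241 ± 81.1 (SD, n = 5) and 69.6 ± 14.5 (SD, n = 4) differed by a log2 fold change of 1.74 ± 0.36 (SE). The controls formed a tight group well below the lowest PtcDLoop2 embryo.

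ENSGALG00000012226 had 1112.8, 1304.3, 792.1, 1061.9 and 701.5 with PtcDLoop2 against 368.7, 193.4, 270.0 and 295.5. Neither group held a stray embryo, and the coefficients of variation were 24.7% and 25.7%. The log2 fold change was 1.82 ± 0.27 (SE), a level 3.52 times that of the controls.

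The next widest gaps, at ratios of 1.475 and 1.445, lay at the opposite ends of read support. ENSGALG00000012726 had the most reads of the 46 genes, at least 6174 in every library. Its values were 10724.9, 12066.2, 12045.3, 14413.7 and 13320.1 with PtcDLoop2 and 5634.5, 6886.9, 7270.0 and 7146.0 in the controls, a log2 fold change of 0.89 ± 0.15 (SE). Both groups were compact, with coefficients of variation of 11.2% and 11.1%. ENSGALG00000012541, by contrast, had 23.0, 25.4, 31.3, 18.5 and 23.2 with PtcDLoop2 and 12.8, 3.7, 0.0 and 0.0 in the controls. Its control spread was the largest of the 46, at 146% of the mean, because 2 controls had no read and control replicate 1 had 14. Its log2 fold change was 3.14 ± 1.00 (SE), and 3.90 without control replicate 1.

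In 3 more of the widest gaps a single control embryo was under 0.5 of every other control. ENSGALG00000015932 had 459.3, 263.8, 129.2, 140.6 and 218.2 with PtcDLoop2 against 25.6, 90.7, 73.9 and 0.0, with control replicate 4 at 0. Control replicate 1, at 25.6, was also low there. ENSGALG00000009032 had 336.9, 313.6, 221.0, 129.3 and 286.9 against 5.5, 95.3, 86.2 and 88.7, with control replicate 1 the low one. ENSGALG00000005964 had few reads, at 29.5, 45.6, 13.8, 27.7 and 44.1 against 6.4, 9.3, 10.7 and 0.0. Their log2 fold changes of 3.40 ± 1.13 (SE), 2.38 ± 0.74 (SE) and 2.49 ± 0.92 (SE) had larger errors than those of the 4 genes with the largest ratios. Without control replicate 4, ENSGALG00000015932 stood at 1.94 and ENSGALG00000005964 at 1.67, and without control replicate 1, ENSGALG00000009032 stood at 1.43. For ENSGALG00000015932 the value was 4.11 without control replicate 2 and 4.02 without control replicate 3.

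ENSGALG00000026627 was the only gene of the 46 with no read in any control. It had 6, 13, 25, 23 and 14 reads with PtcDLoop2, which are 5.5, 13.8, 19.1, 23.6 and 10.5 normalized counts. A control library with 0 reads allows up to 3 reads, or 2.46 to 3.28 normalized counts, so its mean was at least 5.15-fold higher with PtcDLoop2. It reached the filter on low values only through the PtcDLoop2 embryos. Of the 46 genes, 35 had at least 10 normalized counts in each control as well, and 11 had a control under 10. The matching shares of all tested genes are not given here. A further 10 genes had the same separation but stayed below the filter, with values up to 44.2.

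**Figure D2:**
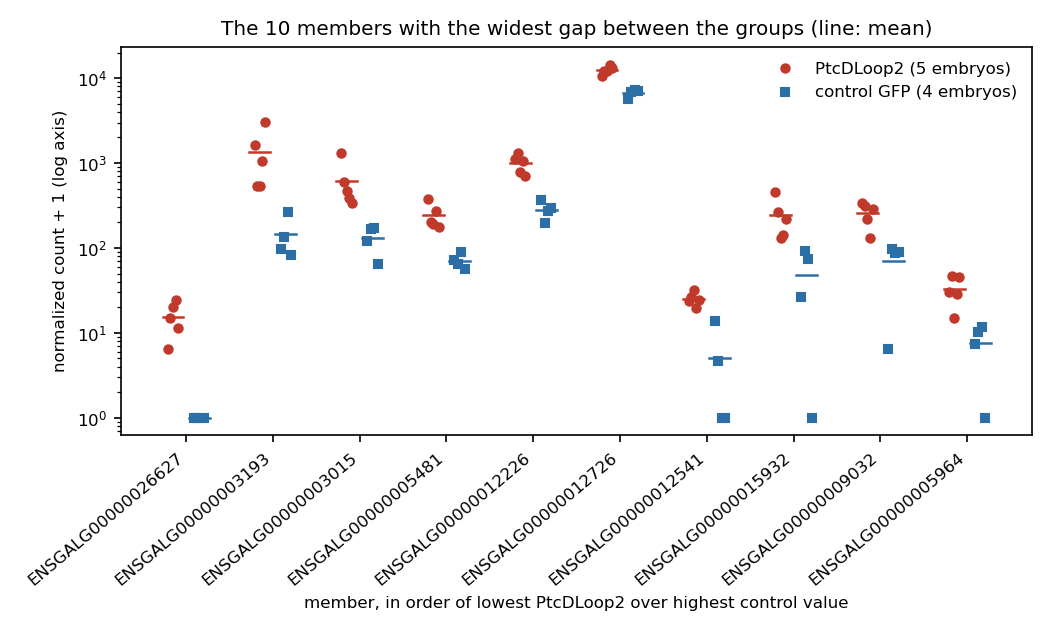
Normalized counts plus 1 (log axis) of the 10 genes with the widest gap, 1 red circle per PtcDLoop2 embryo, 1 blue square per control embryo and a line at each mean. The groups never overlap, by selection. In ENSGALG00000012726 both groups are compact, whereas in ENSGALG00000015932 and ENSGALG00000009032 the lowest control, at 0.0 and 5.5, is under 0.5 of every other control.

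At the edge of the rule the separation rested on a few counts. The 3 genes just inside it were ENSGALG00000015930, ENSGALG00000011511 and ENSGALG00000001854, with ratios of 1.005, 1.006 and 1.008. In ENSGALG00000015930, PtcDLoop2 gave 860.6, 844.5, 850.2, 990.1 and 859.2, and the controls gave 643.4, 730.2, 747.6 and 840.6. Control replicate 4, at 840.6, came close to the lowest PtcDLoop2 embryo, at 844.5. The log2 fold change, 0.25 ± 0.19 (SE), was the smallest of the 46.

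The 3 tested genes just outside were ENSGALG00000009458, ENSGALG00000015185 and ENSGALG00000003337, with ratios of 1.000, 0.998 and 0.997. In ENSGALG00000015185, for example, the lowest PtcDLoop2 value was 2363.7 and the highest control value 2368.5. Exact Poisson intervals at the 95% level, which cover counting error only, overlapped between the lowest PtcDLoop2 and the highest control library in 39 of the 46 genes. They were apart in 7: the 4 genes with the largest ratios, ENSGALG00000012726, ENSGALG00000000569 and ENSGALG00000015280. The last 2 had many reads, with ratios of 1.281 and 1.11. A gene outside the 46 cannot be apart in this direction, so these 7 are also the count over all 9621 tested genes. The 2 libraries compared are those the rule used, so the 7 are a description. In ENSGALG00000015280 the PtcDLoop2 embryos gave 3110.1, 3266.6, 4050.8, 3127.3 and 3134.8 and the controls 2553.5, 2595.8, 2801.6 and 2783.3. Its log2 fold change was small, at 0.31 ± 0.16 (SE), and its control spread was the lowest of the 46, at 4.74%.

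**Figure D3:**
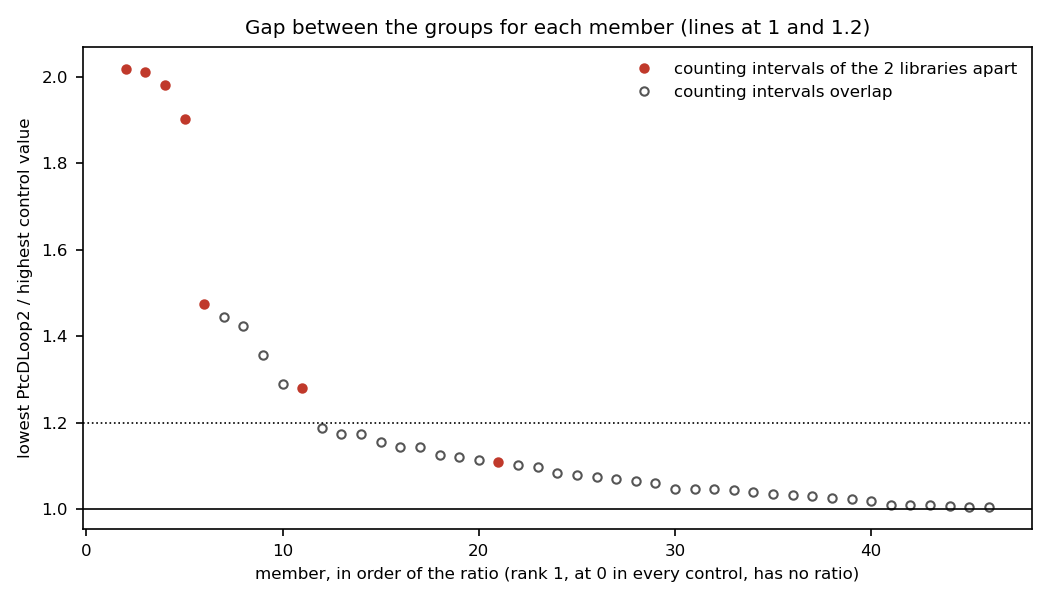
The ratio of the lowest PtcDLoop2 to the highest control value (vertical axis) for the 45 genes with control reads, in order of that ratio. Filled circles mark the 7 genes whose counting intervals were apart. Only 10 circles lie on or above the dotted line at 1.2, and the rest run down to 1.005.

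Among the 46, the genes with fewer reads had the larger differences. The log2 fold changes of the 46 genes had a median of 0.99, also with ENSGALG00000026627 at its bound, while the median over all tested genes was -0.01. They ran from 0.25 to 3.40 in the 45 genes with control reads, a 1.19-fold to 10.5-fold range. The upper end was ENSGALG00000015932, with 1 control at 0. Its ratio of group means was 5.09, and its log2 fold change was 1.94 without control replicate 4. In 23 of the 46 genes the log2 fold change was 1 or more, against 6.03% of all tested genes. That share is only printed for comparison because the selection used this contrast. In 13 genes the fold change lay between 1.5 and 2, and in 10 it was under 1.5. Together the 46 genes held 0.412%, 0.405%, 0.417%, 0.384% and 0.503% of all normalized counts in the PtcDLoop2 embryos and 0.204%, 0.276%, 0.284% and 0.205% in the controls.

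The 8 genes with a mean under 50 all had a log2 fold change of 1 or more, with a median of 2.51, or 2.43 with ENSGALG00000026627 at its bound. Of the 13 genes with means from 50 to 200, 10 reached it, with a median of 1.74. Of the 14 with means from 200 to 1000, 4 reached it, with a median of 0.82. Of the 11 with means of 1000 or more, 1 reached it, with a median of 0.65. That 1 gene was ENSGALG00000009971, at 1.04 ± 0.48 (SE), where control replicate 1 stood at 188.9 and the other controls at 1255.8, 1015.1 and 1090.1. The 4 classes held 22.2%, 26.4%, 33.0% and 18.3% of all tested genes. These are the sizes of the classes. The share of tested genes in each class with a log2 fold change of 1 or more is not given here. The order cannot therefore be called particular to the 46 genes. A gene with few reads needs a larger difference to be free of overlap, so this order is in part set by the rule.

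In several of the genes with most reads the groups differed by a modest factor on average, while their closest embryos were almost level. ENSGALG00000001000 had 3240.9, 3129.9, 4693.8, 2907.8 and 3338.8 with PtcDLoop2 against 2120.0, 2881.7, 2059.8 and 1761.1. ENSGALG00000011511 had 2766.8, 3749.8, 3170.0, 2425.5 and 1999.2 against 981.1, 1744.4, 1987.6 and 1595.8. ENSGALG00000026493 had 1628.2, 2272.7, 2069.0, 1769.9 and 1587.6 against 948.2, 1290.0, 1532.1 and 956.6. Their log2 fold changes were 0.65 ± 0.20 (SE), 0.85 ± 0.25 (SE) and 0.67 ± 0.21 (SE), and the lowest PtcDLoop2 embryo stood at 1.009, 1.006 and 1.036 times the highest control.

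The genes with fewest reads showed larger folds and, where the controls had reads, wider spread across the controls. ENSGALG00000002444 had 57.1, 20.1, 36.7, 31.8 and 55.3 with PtcDLoop2 against 18.3, 1.9, 7.4 and 3.3, a log2 fold change of 2.52 ± 0.79 (SE). ENSGALG00000012766 had 35.9, 37.1, 57.3, 43.1 and 53.8 against 18.3, 35.2, 21.3 and 7.7, a log2 fold change of 1.25 ± 0.62 (SE). The steadiest gene across the PtcDLoop2 embryos was ENSGALG00000007315, with a coefficient of variation of 5.42% and values of 700.5, 625.1, 676.7, 711.0 and 644.7. Its controls, at 512.9, 531.2, 508.8 and 589.9, lay 1.25-fold lower.

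**Figure D4:**
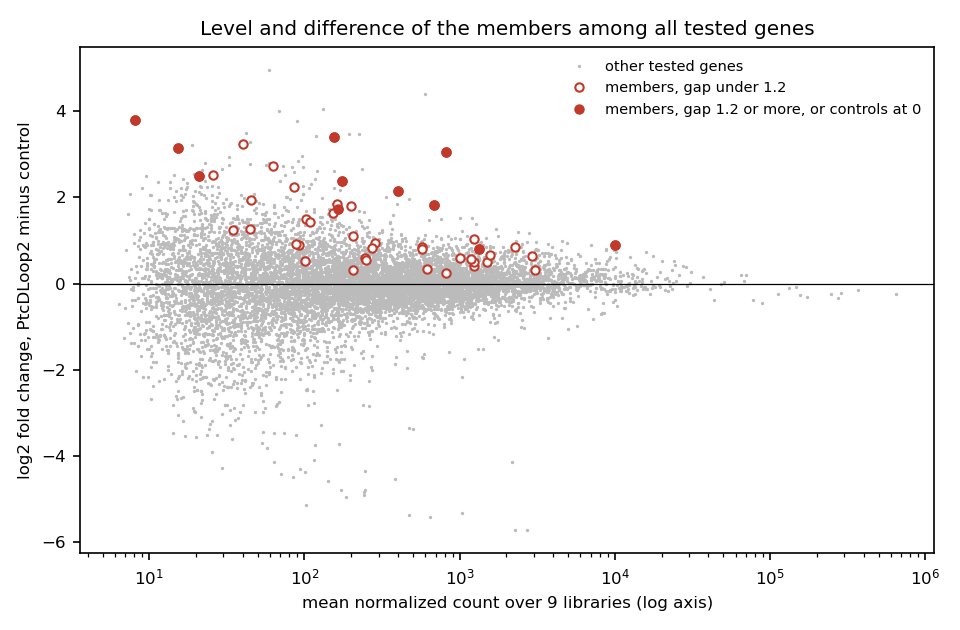
Mean normalized count over the 9 libraries (log axis) against the log2 fold change of PtcDLoop2 minus control, for all 9621 tested genes in grey and the 46 in red, filled where the gap was 1.2 or more or the controls were at 0. The 46 lie at log2 fold changes of 0.25 and above, and many grey genes with overlapping groups lie as high or higher.

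Within their groups the 46 genes were spread less than other genes, as a rule on overlap favours. The median coefficient of variation was 27.2% across the PtcDLoop2 embryos and 25.7% across the controls, against 40.1% and 39.0% over all tested genes. Between embryos of 1 group an order could still be seen. PtcDLoop2 replicate 1 was the highest of its group in 18 of the 46 genes (39.1%, against 26.4% of all tested genes), and PtcDLoop2 replicate 3 the lowest in 14 (30.4%, against 13.7%). PtcDLoop2 replicate 1 was the lowest in 10.9% of the 46, against 29.2% of all tested genes. The rule drops genes with a low PtcDLoop2 embryo, so this order is in part set by the rule. Replicate 1 had the fewest detected genes of its group and replicate 3 the most. Their part in this order was not tested.

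The controls divided more clearly. Control replicate 1 or 4 was the lowest control in 39 of the 46 genes, a larger share than the 63.8% of all tested genes. Control replicate 2 or 3 was the highest in 35 of the 46, also a larger share than the 41.3% of all tested genes. Both control replicates 1 and 4 lay below both 2 and 3 in 20 genes, against 16.9% of all tested genes. The reverse held in 1 gene, against 14.7%. It was therefore mostly control replicates 2 and 3 that came close to the PtcDLoop2 embryos. Over all tested genes, control replicates 1 and 4 were most often the highest control, in 30.2% and 28.5%. They were also most often the lowest there, in 30.4% and 33.3%. The rule drops genes with a high control, so the order among the controls is in part set by the rule. The labels give no batch or other difference among the controls.

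**Figure D5:**
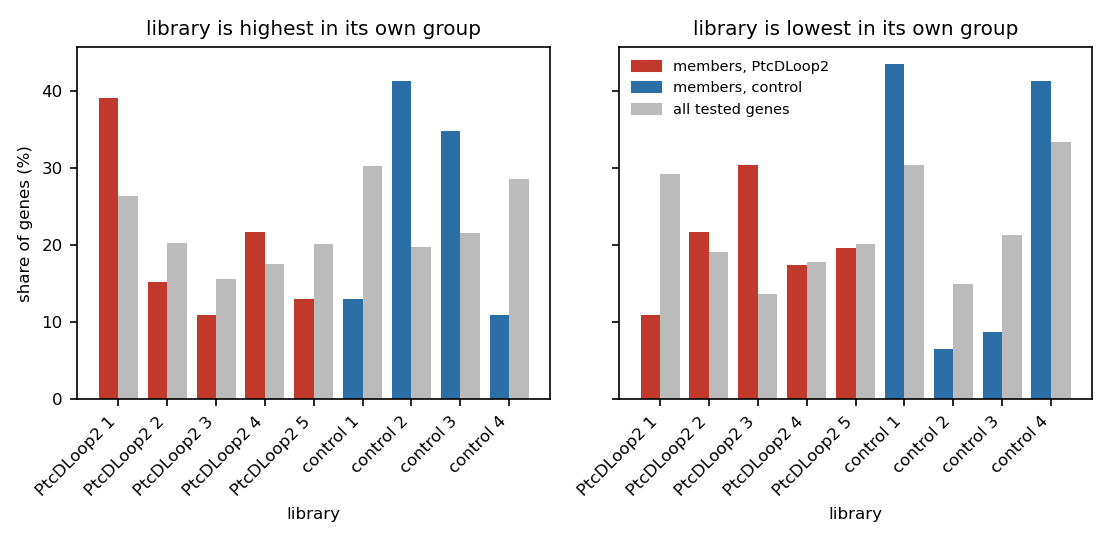
For each library, the share of genes (%) in which it was the highest (left) or the lowest (right) of its own group, in colour for the 46 genes and in grey for all tested genes. Control replicates 2 and 3 are the highest control in 41.3% and 34.8% of the 46 genes, and control replicates 1 and 4 the lowest in 43.5% and 41.3%. These shares are in part set by the rule.

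A small number of genes fell to under 0.5 of every other control in a single embryo. In control replicate 1 these were ENSGALG00000006016, ENSGALG00000009032, ENSGALG00000009971 and ENSGALG00000010854. ENSGALG00000006016 had 12.8 there and 118.5, 111.6 and 74.4 in the other controls. In control replicate 4 they were ENSGALG00000004127, ENSGALG00000005964, ENSGALG00000006233, ENSGALG00000012766 and ENSGALG00000015932. ENSGALG00000004127 had 1.1 there and 31.0, 82.4 and 58.3 in the others, and ENSGALG00000006233 had 20.8 against 64.8, 153.6 and 145.3. No gene of the 46 did so in control replicate 2 or 3. Over all tested genes the shares were 9.46% in control replicate 1, 2.12% in 2, 2.68% in 3 and 13.3% in 4. The 4 genes in control replicate 1 and the 5 in control replicate 4 are no more than these shares give, so the pattern is not particular to the 46. These sets, and ENSGALG00000009971 and ENSGALG00000000569 where they are named elsewhere, were chosen after their values had been seen.

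Deviations from the group mean on the log2 scale were shared by some of the genes. Over the 1035 pairs the median correlation across the 9 libraries was 0.13, against 0.00 over all pairs of tested genes. It was over 0.8 in 2.71% of pairs, against 1.88%. It was under -0.8 in 0.0966%, against 1.23%. The closest pair was ENSGALG00000006947 and ENSGALG00000009032 at 0.95, and ENSGALG00000009032 and ENSGALG00000009971 stood at 0.93. ENSGALG00000006947 too was lowest in control replicate 1, at 571.3 against 1078.1, 1039.7 and 1098.9. ENSGALG00000005964 and ENSGALG00000015932 stood at 0.92, both with no read in control replicate 4. Such values rest on few libraries, often on 1 low embryo, and all genes share the same libraries, depths and size factors. The rule also drops genes with a high control or a low PtcDLoop2 embryo. The difference from all pairs of tested genes is therefore in part set by the rule.

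Fewest genes were detected in PtcDLoop2 replicate 1 and in control replicate 4, and leaving both out brought the median log2 fold change of the 46 genes from 0.99 to 0.96. It became smaller in 32 genes and larger in 14, and 21 genes in place of 23 had a log2 fold change of 1 or more. Over all tested genes that share was 6.96% in place of 6.03%. The sign of the fold changes of the 46 genes is fixed by the selection. Of the named genes, ENSGALG00000003015 went from 2.15 to 1.53, ENSGALG00000005964 from 2.49 to 1.68 and ENSGALG00000015932 from 3.40 to 1.67. Another 12 genes stood at 100 or more in PtcDLoop2 replicate 3 and control replicates 1, 2 and 4 and at 2 or less in the other 5 libraries. With such values the rule keeps all 12 out of the 46 by definition. They were present in 1 of the 5 PtcDLoop2 embryos and in 3 of the 4 control embryos. The embryos with and without them are thus not balanced between the groups. The part of this difference in the values of the 46 genes was not tested.

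Membership depended on how the libraries were scaled. With the total reads of each library in place of the size factors, 39 genes met the rule and 26 of them were among the 46. The 20 genes that no longer met it had ratios up to 1.11. In these 20 the lowest PtcDLoop2 library was replicate 4 in 8 genes, replicate 1 in 5, replicate 2 in 4 and replicate 3 in 3, and the highest control was replicate 3 in 11 and replicate 2 in 9. Against the size factors, this scaling multiplied PtcDLoop2 replicates 4, 1, 2 and 3 by 0.920, 0.948, 0.969 and 1.03, and control replicates 3 and 2 by 1.09 and 1.04. With the trimmed mean of M-values 45 of the 46 still met the rule, and with upper-quartile scaling 40 did. All 11 genes with a ratio of 1.2 or more, or with no control read, met it under these 3 scalings, and 14 of the other 35 did. The total-read factors are too close to each other to close a ratio of 1.2. For that scaling the separation of the 11 was therefore fixed by the cut-off.

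The authors' deposited table tests the same contrast on the same libraries, so it adds no independent evidence for these genes. The authors' deposited table has 7 genes with an adjusted p under 0.05 among the higher genes, 0.0576% of its 12150 genes with a p-value. Of the 46 genes, 5 are among these 7. In the authors' deposited table their adjusted p-values are 1.36e-06 for ENSGALG00000012226, 7.82e-06 for ENSGALG00000003193, 0.000362 for ENSGALG00000012726, 0.000373 for ENSGALG00000005481 and 0.0016 for ENSGALG00000003015. These are the 5 genes with the largest finite ratios. The other 41 have adjusted p-values of 0.0893 or more in the authors' deposited table, the lowest being that of ENSGALG00000000569. That gene had 1782.0, 1843.6, 1312.0, 1947.4 and 1314.2 with PtcDLoop2 against 991.1, 1024.4, 758.3 and 936.9. Both groups were compact, and its ratio of 1.281 was the smallest of the 11 with a wider gap.

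The 2 higher genes called in the authors' deposited table that are not among the 46 had overlapping groups. ENSGALG00000025875 had 369.1, 10.6, 17.6, 60.5 and 139.0 with PtcDLoop2 and 0.9, 4.6, 15.6 and 0.0 in the controls, so control replicate 3 lay above PtcDLoop2 replicate 2. ENSGALG00000012108 had 221.8, 119.7, 5.4, 0.0 and 25.4 against 2.7, 0.0, 0.0 and 1.1 and stayed below the filter. Their log2 fold changes in the authors' deposited table are 4.48 and 6.29, larger than those of the 5 shared genes, which run from 0.89 to 3.24.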

How the data were processed

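RNA from sorted GFP-positive cells of 9 chick embryos was sequenced, 5 with PtcDLoop2 and 4 controls. Groups and replicate numbers come from the labels. The build galGal4 and the tools DESeq2, DESeq, HTSeq 0.6.1p1, STAR 2.4 and cutadapt 1.8.3 are listed without settings in the submitters' processing notes. The deposited values are read counts per gene that the authors divided by a size factor per library, which is a normalized signal. The authors' mean signal differs from the row means by 0.0256 on average. The authors also deposited log2 fold changes, fold changes and p-values for the same contrast, per the file headers. Dividing the deposited values by the step of each library gave whole reads within 0.06 for 100.0% of values.

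Genes with 10 normalized counts in 4 or more libraries entered the fit with limma 3.58.1 (R 4.3.3), limma-trend with robust empirical Bayes on log2(value + 1), with Benjamini-Hochberg adjustment over all tested genes. Fold changes are differences of means on that log2 scale. The pseudocount lowers those of low genes, while a control near 0 can raise them above the ratio of group means. The fit was run on simulated data with planted changes larger than most of those in the 46 genes and with less spread between libraries. That run does not show which differences of the size seen here the fit could call. The exact permutation tests used scipy 1.17.1. The members, rules and gene lists were chosen with earlier results of these data known. Genes named were the 10 with the largest ratio, the 5 with the highest and the 5 with the lowest mean, those called in the authors' deposited table, the 3 nearest each side of the threshold, and the extremes of spread. Alternatives were other filters, pseudocounts, scalings and models, a replicate block, and libraries left out. Of the identifiers, 0 matched the reference table, in which 0 of 25635 genes carry an Ensembl identifier, so gene lists, markers and sequences are not used here. The depth of the libraries is given with the results, and intervals and floors cover counting error only, since reads without molecular identifiers are not independent molecules.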

Additional observations from a re-analysis of the deposited data

Results flagged for a closer look

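In 6 of 45 sets of values examined, a single library stood far from the rest of its group by Dixon's criterion. Each set was 1 named gene or library measure in 1 group. By chance the criterion marks about 1 in 20 sets of values that were not selected beforehand. Most of these sets are genes selected on the same values, so the 6 cannot be set against that rate. ENSGALG00000003015 was high in PtcDLoop2 replicate 1, at 1299.7 normalized counts. ENSGALG00000009032 was low in control replicate 1, at 5.5. ENSGALG00000015280 and ENSGALG00000001000 were both high in PtcDLoop2 replicate 3, at 4050.8 and 4693.8. ENSGALG00000015930 was high in PtcDLoop2 replicate 4, at 990.1. The share of all normalized counts held by the 46 genes was highest in PtcDLoop2 replicate 5, at 0.503%. Their summed value there, 44481.8, lay inside the range of the PtcDLoop2 group, from 43075.4 to 46406.9, and the 10 most abundant genes took 11.4% of that library's counts against 20.0% to 29.2% in the other PtcDLoop2 libraries.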

How the results depend on the processing

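The number of genes that met the rule changed most with the libraries used. Requiring a ratio of 1.2 left 11 genes, and in the reverse direction 33 of the 99 lower genes. Leaving out 1 library at a time gave from 80 genes (without PtcDLoop2 replicate 5) to 197 (without control replicate 3). Leaving out PtcDLoop2 replicate 1 and control replicate 4 together gave 230. Fewer libraries leave fewer chances to overlap, so the number can only stay or rise. That does not set how the number differs with the library left out, which was not tested. Without a filter 56 genes met the rule, with a filter at 50 it was 39, and with a mean of at least 10 it was 47. Scaling by total reads gave 39, the trimmed mean of M-values 56 and upper-quartile scaling 47.

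The limma fit gave 0 called genes in 19 of 20 alternatives. Without PtcDLoop2 replicate 1 and control replicate 4 it called 5 genes, 0 higher and 5 lower, and 0 of them among the 46. Leaving out 1 library at a time gave from 0 to 0 calls. Replicate numbers did not pair the libraries, with correlations of deviations from -0.072 to 0.058. With a replicate block by title number limma called 0 genes (smallest adjusted p = 0.936). PtcDLoop2 replicate 5 has no control of its number, so that block takes it out of the contrast. The fold changes of the named genes are then the same as without PtcDLoop2 replicate 5. A block by description number used only the libraries numbered 5, 7 and 9, which occur in both groups. It gave 0 called genes (smallest adjusted p = 0.995). Of 323 log2 fold changes of the 19 named genes under 17 alternatives, 0 changed sign, which the selection favours, and 4 moved by more than the spread. These were ENSGALG00000026627, at 4.75 and 1.88 with pseudocounts of 0.5 and 5 and at 4.87 with limma-voom, and ENSGALG00000012541, at 1.88 with a pseudocount of 5. The edgeR and DESeq2 tests on recovered reads were not run. Depth limits genes with few reads, and 11 of the 46 had fewer than 10 reads in at least 1 library. The matching share of all tested genes is not given here.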
